A study of Homo sapiens with 6 samples.

Results

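The RNA levels of 59 genes of mitosis were compared between Ewing sarcoma cells with and without depletion of EHD1. The 59 genes encode proteins of the mitotic spindle, the kinetochore, the condensin complex and their regulators, and they were chosen by symbol for these functions. All 59 were present among the 60676 genes of the count table, and all 59 were among the 16785 genes with enough counts to be tested. The cells were TC71, a Ewing sarcoma line, infected with a lentiviral construct from which doxycycline (Dox) induces a short hairpin RNA together with GFP, and kept as a puromycin-selected polyclonal population. The shNTC+Dox group (3 libraries) expressed a non-targeting hairpin and the shEHD1+Dox group (3 libraries) a hairpin against EHD1, a regulator of endocytic recycling. All 6 libraries came from cells grown with 0.5 µg/ml Dox for 3 days, so the construct, the selection and Dox were common to the groups. The labels do not say which EHD1 hairpin was used. Cells without Dox were not analysed here.

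Dividing cells make most mitotic proteins late in the cycle. Cyclin B with CDK1 starts mitosis, condensin compacts the chromosomes, kinetochores built on centromeric chromatin attach them to spindle microtubules, and the spindle assembly checkpoint holds back the anaphase-promoting complex until every chromosome is attached. Many of these genes share a promoter element called the cell cycle genes homology region (CHR), which is read by MuvB-containing complexes that repress them in resting cells and, with MYBL2 and FOXM1, activate them before mitosis. Genes of DNA replication are instead switched on earlier, at the start of S phase, commonly through E2F sites.

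The libraries held between 22711235 and 30582187 counts, and the 59 genes had between 298 and 16367 counts in each library. Replicate 3 of shNTC+Dox stood apart from the other controls over all genes tested, cell cycle genes among them, and the counts are given with and without it. The chi-square per degree of freedom, a measure of difference beyond sampling noise, was 25.6 and 27.1 between this library and shNTC+Dox replicates 1 and 2. Between replicates 1 and 2 themselves it was 5.56. EHD1 itself (ENSG00000110047, chr11:64851642-64888296 on GRCh38, the build of all gene positions given here) had 27.1, 28.0 and 26.4 normalised CPM (counts scaled to the library size) in the shNTC+Dox libraries and 7.55, 7.15 and 9.37 CPM in the shEHD1+Dox libraries. The groups did not overlap, and EHD1 fell by 1.76 on the log2 scale (SE 0.12, edgeR adjusted p = 1.35e-04). Mitochondrial genes took 3.571% to 4.037% of the counts in shNTC+Dox and 1.941% to 2.707% in shEHD1+Dox, and the part of this difference in the results was not tested. The line's label was checked against Ewing sarcoma markers, of which all 8 were expressed, with a summed level of 2900 to 3010 CPM in shNTC+Dox and 2690 to 2830 CPM in shEHD1+Dox (STEAP1 lower and CD99 higher at an adjusted p under 0.05). The leukocyte marker CD3E and the endothelial marker VWF had no count, PTPRC, the pan-leukocyte CD45, was at most 0.403 CPM, and the 3 endothelial markers summed to at most 0.105 CPM in any library. Fibroblast markers summed to 191 to 237 CPM in shNTC+Dox and 359 to 417 CPM in shEHD1+Dox, nearly all from COL3A1, while COL1A2 stayed at or under 0.646 CPM (COL3A1 higher and DCN lower at an adjusted p under 0.05). Epithelial markers summed to 27.2 to 31.5 CPM and 34.1 to 40.2 CPM, with EPCAM and CDH1 at most 0.19 CPM, and the part of these markers in the results was not tested.

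The promoters of the 59 genes were described first, since a CHR word stood in most of the windows found. Promoter windows of RefSeq (GRCh38.p14), running from 250 bases before to 50 bases after the start of transcription, were found for 49 of the 59 genes. A CHR word (TTTGAA on either strand, or the variant TTCGAA, which reads the same on each strand) stood in 32 of the 49 windows (65.3%), against 16.4% of all 35116 windows of the same length and 2 of the 29 windows of S phase genes (6.9%). The CHR word began within 60 bases of the start in 26 of the 49. It lay farther off in others, such as NCAPD2 (at -145) and TOP2A (at -194 and -151). Whether a word found here is a working element was not tested. An E2F word (TTTCGCGC, TTTGGCGC or TTTCCCGC, on either strand) stood in 3 of the 49 windows (6.12%), against 2.74% of all windows and 15 of 29 windows of S phase genes (51.7%). The word CCAAT, bound by NF-Y, was searched after these values were seen and stood in 34 of the 49 (69.4%), in 34.6% of all windows and in 17 of 29 S phase windows (58.6%). CHR and CCAAT occurred together in 24 of the 49 windows (49.0%), against 6.38% of all windows. For the 59 genes and the S phase genes 1 window a gene was used. The 35116 windows were neither reduced in this way nor limited to the genes tested. The stretches that hold these words are shown for the 6 genes past the test that had a CHR, from 5′ to 3′ along the gene, with the CHR and CCAAT words in capitals. A CHR on the reverse strand appears as TTCAAA, and a reverse CCAAT appears as ATTGG. In MKI67 the CHR nearest the start and the last CCAAT overlap by 1 base.
BUB1: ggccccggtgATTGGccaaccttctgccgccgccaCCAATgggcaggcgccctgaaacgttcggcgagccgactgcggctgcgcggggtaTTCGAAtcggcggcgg
NCAPD2: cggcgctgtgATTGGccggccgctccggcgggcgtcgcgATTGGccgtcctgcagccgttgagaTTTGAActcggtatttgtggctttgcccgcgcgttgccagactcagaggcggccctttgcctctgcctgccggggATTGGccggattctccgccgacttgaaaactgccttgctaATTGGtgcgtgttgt
CCNB2: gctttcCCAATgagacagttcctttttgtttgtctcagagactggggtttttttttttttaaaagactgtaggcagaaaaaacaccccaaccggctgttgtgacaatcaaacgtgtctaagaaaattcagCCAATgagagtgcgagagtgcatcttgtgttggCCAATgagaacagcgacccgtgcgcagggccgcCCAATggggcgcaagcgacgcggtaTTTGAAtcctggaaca
MKI67: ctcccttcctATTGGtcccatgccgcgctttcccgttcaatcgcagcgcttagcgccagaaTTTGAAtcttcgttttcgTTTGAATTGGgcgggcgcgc
CDC20: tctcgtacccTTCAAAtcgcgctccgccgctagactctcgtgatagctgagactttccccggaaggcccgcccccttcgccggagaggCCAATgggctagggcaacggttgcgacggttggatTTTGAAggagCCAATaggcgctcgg
TOP2A: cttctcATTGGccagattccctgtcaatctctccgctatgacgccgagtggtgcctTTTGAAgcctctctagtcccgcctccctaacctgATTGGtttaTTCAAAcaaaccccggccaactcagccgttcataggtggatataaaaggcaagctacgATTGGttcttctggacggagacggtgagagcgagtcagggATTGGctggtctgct
These stretches lie on GRCh38.p14, BUB1 at chr2:110678047-110678152 on the minus strand, NCAPD2 at chr12:6493893-6494086 on the plus strand, CCNB2 at chr15:59104896-59105132 on the plus strand, MKI67 at chr10:128126433-128126531 on the minus strand, CDC20 at chr1:43358793-43358940 on the plus strand and TOP2A at chr17:40417935-40418146 on the minus strand. The windows of CCNB1, NEK2 and CDC25B held none of the CHR or E2F words searched. CENPM and BIRC5 were not in the promoter table.

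Of the 59 genes, 11 (18.6%) passed the edgeR quasi-likelihood test at an adjusted p under 0.05, against 17.3% of all genes tested, so the number of changed genes was close to the background. In RNA from whole cultures, fewer or more cells in mitosis and less or more RNA per cell cannot be told apart. The 8 that rose (13.6%, background 8.59%) were CCNB1, CCNB2, NEK2, BUB1, BIRC5, CDC20, NCAPD2 and MKI67. The 3 that fell (5.08%, background 8.75%) were CENPM, CDC25B and TOP2A. The changes were small, from -0.72 to 0.38 on the log2 scale. No gene also reached a 2-fold change in edgeR or DESeq2, against 2.82% of all genes in edgeR. At an unadjusted p under 0.05, 13 were higher and 16 lower. The share over all genes at this unadjusted threshold was not computed, so the unadjusted counts here and below have no background to be compared with. The median log2 fold change was 0.0034, with 30 genes above 0 and 29 below, and that of all genes tested was 0.001. The groups did not overlap in 11 genes that were higher (18.6%, background 19.9%) and in 15 that were lower (25.4%, background 19.4%) in shEHD1+Dox. For each of these 26 genes the exact permutation test (two-sided) gave 0.1, the smallest p that 3 libraries against 3 allow. DESeq2 called 11 genes higher (18.6%, background 10.5%) and 11 lower (18.6%, background 11.1%), among them all 11 of the edgeR calls. These 2 backgrounds hold for all DESeq2 counts given below. The count of risen genes depended on the libraries used, as did the share over all genes tested. Leaving out shEHD1+Dox replicate 1 left 0 risen genes (9 at an unadjusted p under 0.05), and shEHD1+Dox replicate 3 left 2. Leaving out shNTC+Dox replicates 1 and 2 left 3 and 2, and shNTC+Dox replicate 3 gave 15. In this order these were 0%, 3.39%, 5.08%, 3.39% and 25.4% of the 59. The shares over all genes tested were 3.76%, 3.9%, 5.04%, 6.07% and 11.4%. Without shEHD1+Dox replicate 2 the count of risen genes was again 8 (13.6%, background 5.92%), and 10 of the 11 calls were kept. The count of fallen genes became 6 when replicate 2 of shNTC+Dox (background 6.4%), or that of shEHD1+Dox (background 6.62%), was left out.

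**Figure D1:**
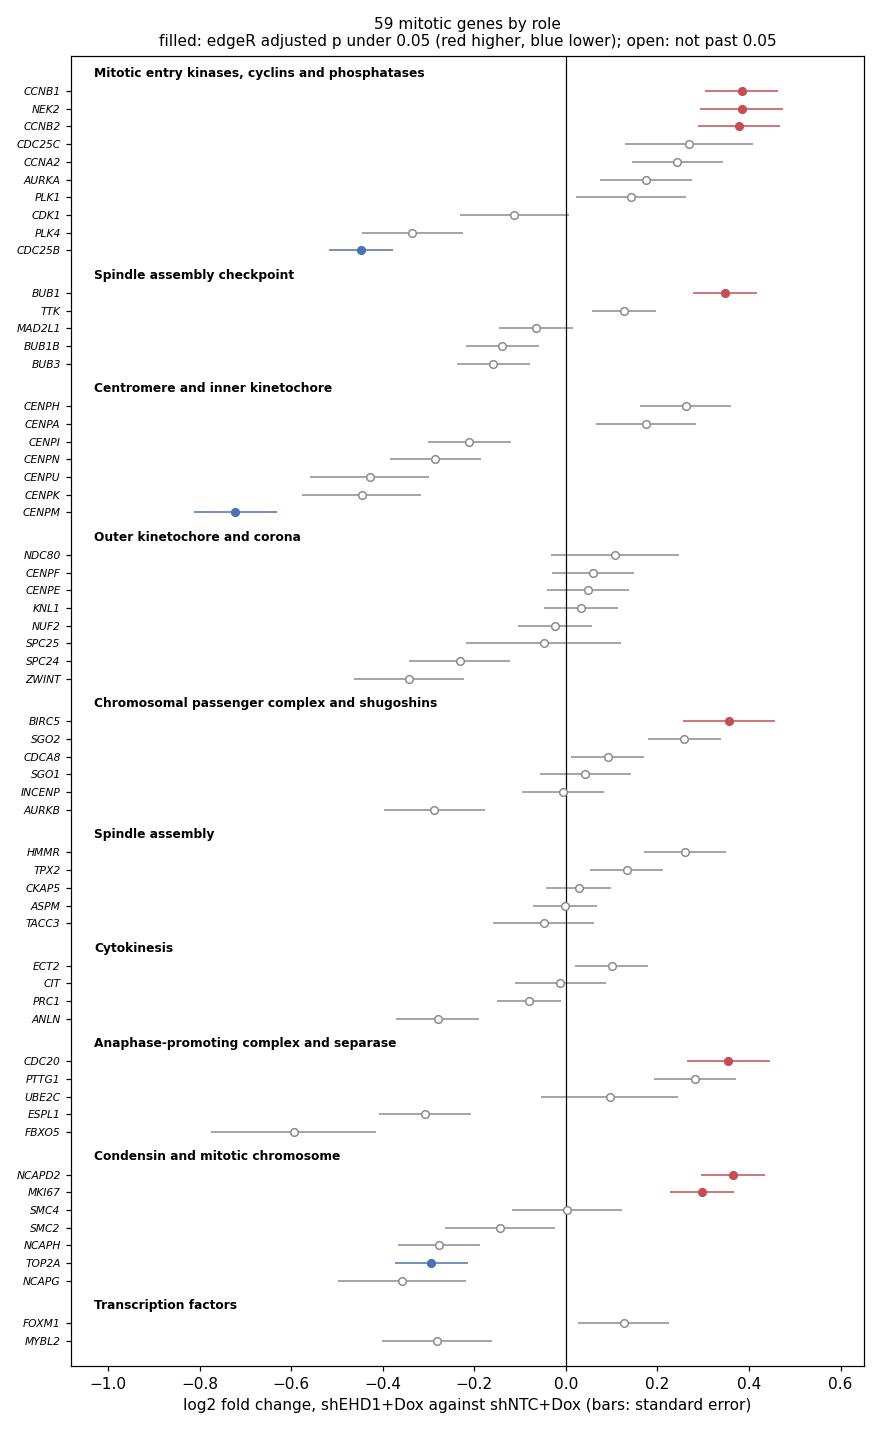
Log2 fold change of each of the 59 genes in shEHD1+Dox against shNTC+Dox (x axis), grouped by role, with its standard error as a bar. Filled points are the 8 genes that rose and the 3 that fell at an edgeR adjusted p under 0.05, and every point lies between -0.72 and 0.38.

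The kinases, cyclins and phosphatases of mitotic entry had the highest median of the 10 role groups, 0.21 over 10 genes. Of these, 3 rose (30.0%, background 8.59%) and 1 fell (10.0%, background 8.75%). At an unadjusted p under 0.05, 4 were higher and 2 lower, and DESeq2 called 3 higher and 2 lower. CCNB1 (ENSG00000134057, chr5:69167135-69178245) encodes cyclin B1, the main partner of CDK1 in mitosis, and had 211, 217 and 248 CPM in shNTC+Dox and 311, 275 and 295 CPM in shEHD1+Dox. All 3 shEHD1+Dox libraries were above all 3 controls, and CCNB1 rose by 0.38 on the log2 scale (SE 0.08, adjusted p = 0.0151). Its relative CCNB2 (ENSG00000157456, chr15:59105126-59125045), a cyclin B of the Golgi and cytoplasm, had 68.8, 77.7 and 86.2 CPM against 105, 98.1 and 99.4 CPM, again without overlap, and rose by 0.38 (SE 0.09, adjusted p = 0.0209). NEK2 (ENSG00000117650, chr1:211658657-211675630), a kinase that splits the centrosomes, had 68.6, 65.4 and 60.6 CPM against 95.1, 75.9 and 82.8 CPM. The lowest NEK2 value with the EHD1 hairpin was above the highest control value, and NEK2 rose by 0.38 (SE 0.09, adjusted p = 0.0259). CDC25B (ENSG00000101224, chr20:3786772-3806121), a phosphatase that removes inhibitory phosphates from CDK1, went the other way. Its level was 133, 132 and 145 CPM in shNTC+Dox and 104, 94.3 and 103 CPM in shEHD1+Dox, a fall of 26.6% (log2 fold change -0.45, SE 0.07, adjusted p = 0.00431). CDK1 itself had a log2 fold change of -0.11 (SE 0.12, adjusted p = 0.57), the polo-like kinase PLK1 0.14 (SE 0.12, adjusted p = 0.444) and the S phase and mitotic cyclin CCNA2 0.24 (SE 0.1, adjusted p = 0.127). The remaining kinases AURKA and PLK4 and the phosphatase CDC25C ran from -0.34 to 0.27 and did not pass the edgeR test. DESeq2 called PLK4 lower (log2 fold change -0.34, adjusted p = 0.0304). The ratio of CCNB1 to CDC25B, a pair taken after the values were seen, was 1.64 ± 0.0621 (SD, n = 3) in shNTC+Dox and 2.93 ± 0.0708 (n = 3) in shEHD1+Dox.

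**Figure D2:**
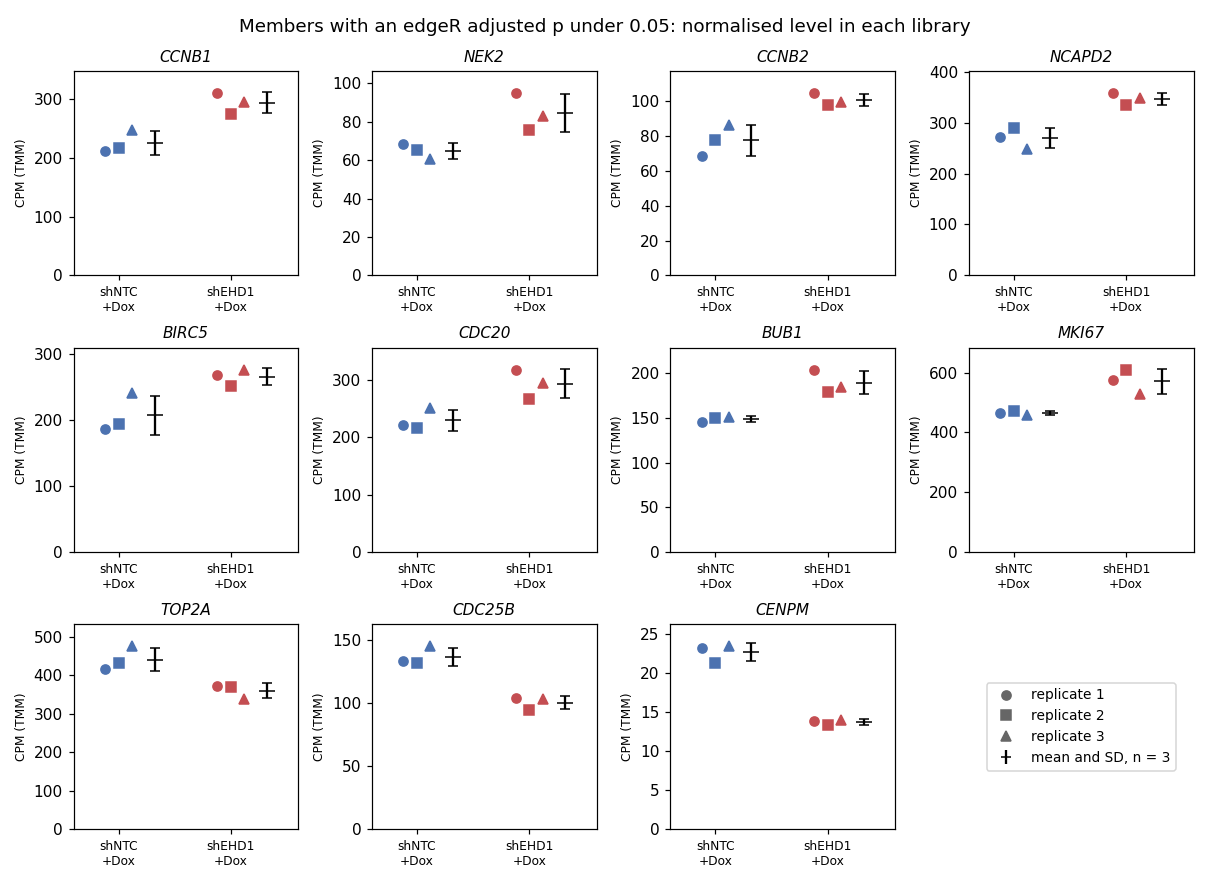
Normalised CPM (y axes, from 0) of the 11 genes past the test in each of the 6 libraries, with the mean and SD of each group (n = 3). In all 11 panels the shEHD1+Dox points lie wholly above or wholly below the shNTC+Dox points.

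In the spindle assembly checkpoint, 1 of 5 genes rose and none fell (median -0.07; 1 higher and 0 lower at an unadjusted p under 0.05, and the same counts by DESeq2). BUB1 (ENSG00000169679, chr2:110637528-110678063), a kinase that marks centromeric histone H2A and recruits the checkpoint to kinetochores, had 145, 150 and 151 CPM in shNTC+Dox and 204, 179 and 185 CPM in shEHD1+Dox. The controls lay close together, and BUB1 rose by 0.35 (SE 0.07, adjusted p = 0.011). Its relative BUB1B, the most abundant gene of the group per length at 43.8 RPKM (counts scaled by library size and by exon length), had a log2 fold change of -0.14 (SE 0.08, adjusted p = 0.256). BUB3, which binds the BUB1 and BUB1B proteins, had -0.16 (SE 0.08, adjusted p = 0.199). The ratio of BUB1 to BUB1B went from 0.727 ± 0.0458 in the controls to 1.02 ± 0.0655 with the EHD1 hairpin (SD, n = 3 each). The kinase TTK, at the top of the checkpoint, had 0.13 (SE 0.07, adjusted p = 0.252) and MAD2L1, which inhibits CDC20, -0.07 (SE 0.08, adjusted p = 0.597).

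The genes of the centromere and inner kinetochore had the lowest median, -0.29 over 7 genes. In 5 of the 7 (71.4%) every shEHD1+Dox library was below every control, against 19.4% of all genes tested. In 1, CENPH, every shEHD1+Dox library was above every control (14.3%, against 19.9% of all genes tested). Only CENPM passed the edgeR test (14.3% lower, background 8.75%), and CENPK and CENPU also passed in DESeq2 (42.9% lower, background 11.1%). CENPM (ENSG00000100162, chr22:41938737-41947152), a subunit of the constitutive centromere-associated network that carries the kinetochore, had 23.2, 21.3 and 23.4 CPM in shNTC+Dox and 13.8, 13.3 and 14.0 CPM in shEHD1+Dox. It fell by 39.4% (log2 fold change -0.72, SE 0.09, adjusted p = 0.00183), the change of greatest size among the 59 genes. Its partners in the same subcomplex did not pass the edgeR test. CENPK had -0.45 (SE 0.13, adjusted p = 0.0507), CENPI -0.21 (SE 0.09, adjusted p = 0.132) and CENPH 0.26 (SE 0.1, adjusted p = 0.1). CENPU, of a neighbouring subcomplex, had 44.0, 41.7 and 58.4 CPM against 35.8, 39.1 and 32.1 CPM (log2 fold change -0.43, SE 0.13, adjusted p = 0.0598). CENPN, which reads the centromeric nucleosome, had -0.29 (SE 0.1, adjusted p = 0.0926), and 23.1% of its exon bases are shared with other genes. The centromeric histone CENPA had 0.17 (SE 0.11, adjusted p = 0.321).

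None of the 8 genes of the outer kinetochore and corona passed edgeR (median 0.0046, 1 lower and 0 higher at an unadjusted p under 0.05), and DESeq2 called ZWINT lower. ZWINT, a docking protein of the KNL1 complex and the most abundant of the group per length, had 113, 108 and 146 CPM in shNTC+Dox and 93.7, 104 and 90.7 CPM in shEHD1+Dox (log2 fold change -0.34, SE 0.12, edgeR adjusted p = 0.0774). The microtubule-binding NDC80 complex was spread around 0, with NDC80 at 0.11 (SE 0.14), NUF2 at -0.02 (SE 0.08), SPC25 at -0.05 (SE 0.17) and SPC24 at -0.23 (SE 0.11). The scaffold KNL1 had 0.03, the kinesin CENPE 0.05 and the corona protein CENPF 0.06, with standard errors of 0.08 to 0.09.

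In the chromosomal passenger complex and the shugoshins, 1 of 6 genes rose (16.7%, background 8.59%) and none fell (median 0.07). At an unadjusted p under 0.05, 2 were higher and 1 lower, and DESeq2 called 2 higher (33.3%, background 10.5%) and 0 lower (background 11.1%). BIRC5 (ENSG00000089685, chr17:78214186-78225636), which encodes survivin, the subunit that brings the complex to centromeres, had 187, 194 and 242 CPM in shNTC+Dox and 269, 252 and 277 CPM in shEHD1+Dox. It rose by 0.36 (SE 0.1, adjusted p = 0.0406), with replicate 3 of the controls close to the lowest shEHD1+Dox library. AURKB, the kinase of the same complex, had 46.3, 45.7 and 58.7 CPM against 43.8, 36.9 and 42.6 CPM (log2 fold change -0.29, SE 0.11, adjusted p = 0.12). The ratio of BIRC5 to AURKB was 4.05 to 4.25 in the controls and 6.15 to 6.82 in shEHD1+Dox, with means of 4.14 ± 0.102 and 6.49 ± 0.335 (SD, n = 3 each). The scaffold INCENP had -0.01 (SE 0.09) and CDCA8, which binds BIRC5, 0.09 (SE 0.08). SGO2, a protector of centromeric cohesion, had 0.26 (SE 0.08, adjusted p = 0.0577) and SGO1 0.04 (SE 0.1, adjusted p = 0.8).

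Spindle assembly and cytokinesis genes showed no edgeR call, with 1 of 5 spindle genes higher (HMMR) and 1 of 4 cytokinesis genes lower (ANLN) at an unadjusted p under 0.05 and in DESeq2. TPX2, which activates AURKA on spindle microtubules and was the most abundant spindle gene per length, had a log2 fold change of 0.13 (SE 0.08, adjusted p = 0.269). HMMR, a spindle pole protein, had 0.26 (SE 0.09, adjusted p = 0.0794), the microtubule polymerase CKAP5 0.03 (SE 0.07), its recruiter TACC3 -0.05 (SE 0.11) and the spindle pole protein ASPM -0.0026 (SE 0.07). ASPM had 241, 240 and 246 CPM in shNTC+Dox and 245, 254 and 227 CPM in shEHD1+Dox. PRC1, which bundles the microtubules of the midzone and led the cytokinesis genes per length, had -0.08 (SE 0.07, adjusted p = 0.47), and 61.9% of its exon bases are shared with other genes, in a library kit that does not keep strand. The actin and septin binder ANLN had -0.28 (SE 0.09, adjusted p = 0.0743), the RhoA activator ECT2 0.1 (SE 0.08) and the citron kinase CIT -0.01 (SE 0.1).

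Of the 5 genes around the anaphase-promoting complex and separase, 1 rose and none fell (median 0.1; 2 higher and 2 lower at an unadjusted p under 0.05, and the same by DESeq2). CDC20 (ENSG00000117399, chr1:43358981-43363203), the activator of the complex in metaphase and the gene with the highest level per length of all 59 (130 RPKM), had 222, 216 and 251 CPM in shNTC+Dox and 318, 267 and 295 CPM in shEHD1+Dox. It rose by 0.35 (SE 0.09, adjusted p = 0.0254) without overlap. FBXO5, which encodes the inhibitor EMI1 of the same complex, had 70.6, 71.2 and 100 CPM against 45.9, 65.2 and 49.2 CPM. The groups did not overlap for FBXO5 either, but its libraries were spread widely and its log2 fold change of -0.59 (SE 0.18) missed the threshold (adjusted p = 0.0543; DESeq2 adjusted p = 0.00342). The ratio of CDC20 to FBXO5 was 2.5 to 3.14 in the controls and 4.1 to 6.93 in shEHD1+Dox. The separase ESPL1 had -0.31 (SE 0.1, adjusted p = 0.0578) and its inhibitor securin, PTTG1, 0.28 (SE 0.09, adjusted p = 0.0721). PTTG1 has near-identical copies elsewhere in the genome, and how reads that match several genes were counted is not given in the sources used here. UBE2C, the ubiquitin-conjugating enzyme of the complex, had 0.1 (SE 0.15, adjusted p = 0.701).

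Condensin and mitotic chromosome genes went in opposite directions, with 2 of 7 risen (28.6%, background 8.59%) and 1 fallen (14.3%, background 8.75%). Their median was -0.14, and DESeq2 called 2 higher and 2 lower. NCAPD2 (ENSG00000010292, chr12:6493356-6531955), a HEAT-repeat subunit of condensin I, had 271, 290 and 249 CPM in shNTC+Dox and 359, 335 and 348 CPM in shEHD1+Dox. It rose by 0.36 (SE 0.07, adjusted p = 0.0121), and the 3 shEHD1+Dox libraries lay above all 3 controls. No other subunit of condensin I passed the edgeR test, and DESeq2 called NCAPH lower (adjusted p = 0.0385). NCAPH, the kleisin that closes the ring, had 106, 100 and 122 CPM against 84.0, 98.6 and 87.3 CPM (log2 fold change -0.28, SE 0.09, adjusted p = 0.0753). NCAPG, the other HEAT-repeat subunit, had -0.36 (SE 0.14, adjusted p = 0.125), with 33.7% of its exon bases shared. The ATPase core had -0.14 for SMC2 (SE 0.12) and 0.0034 for SMC4 (SE 0.12), with 22.0% of the exon bases of SMC4 shared. The ratio of NCAPD2 to NCAPH was 2.05 to 2.9 in the controls and 3.4 to 4.28 in shEHD1+Dox, and that of NCAPD2 to NCAPG 1.78 to 2.96 and 3.35 to 4.44. MKI67 (ENSG00000148773, chr10:128096659-128126423), the proliferation antigen that coats mitotic chromosomes, had 465, 470 and 459 CPM against 575, 610 and 527 CPM. It rose by 0.3 (SE 0.07, adjusted p = 0.0248) from controls that were nearly equal. TOP2A (ENSG00000131747, chr17:40388525-40417896), the topoisomerase that untangles sister chromatids, had 415, 432 and 475 CPM against 372, 370 and 337 CPM and fell by 18.4% (log2 fold change -0.29, SE 0.08, adjusted p = 0.0313). MKI67 and TOP2A, which both serve as proliferation markers, thus moved in opposite directions, and their ratio went from 1.06 ± 0.0807 to 1.59 ± 0.0544 (SD, n = 3 each). All 7 ratios given here were chosen after the values were seen and carry no test.

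The transcription factors FOXM1 and MYBL2, which activate many of the other genes, did not pass the test (1 lower and 0 higher at an unadjusted p under 0.05, and 0 by DESeq2). FOXM1 had 163, 162 and 206 CPM in shNTC+Dox and 191, 198 and 190 CPM in shEHD1+Dox (log2 fold change 0.13, SE 0.1, adjusted p = 0.413). MYBL2 had 168, 164 and 229 CPM against 152, 157 and 153 CPM (log2 fold change -0.28, SE 0.12, adjusted p = 0.152). Split by promoter, the 32 genes with a CHR word in their window had a median log2 fold change of -0.004 (15 above 0, 17 below). The median of the 17 without the word was -0.211 (7 above 0, 10 below). Of the 32 genes with a CHR word, 5 rose and 1 fell, and of the 17 without, 2 rose and 1 fell. Over all genes tested 8.59% rose and 8.75% fell. Without shNTC+Dox replicate 3 the medians were 0.066 with the word and -0.109 without it. The difference between these classes was not tested. The stretches printed above show that a CHR word stood in the window of genes that rose, such as CCNB2, and of TOP2A, which fell.

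Replicate 3 of shNTC+Dox stood apart from the other 2 controls for these genes. It was the highest control library for 47 of the 59, and the median ratio of its level to the mean of replicates 1 and 2 was 1.15 (range 0.815 to 1.53), against 0.998 for all genes tested. Library scaling holds the median over all genes near 1, so 0.998 does not show that this library was like the others outside these genes. Over all genes tested the chi-square per degree of freedom between it and replicates 1 and 2 was 25.6 and 27.1, against 5.56 between replicates 1 and 2. The ratio was greatest for SPC25 (1.53), UBE2C (1.44), FBXO5 (1.41), MYBL2 (1.38), CDK1 (1.37) and NCAPG (1.37), and least for CIT (0.815), CENPH (0.837) and PTTG1 (0.866). The S phase genes, described next, were above 1 in this ratio for 34 of 34, with a median of 1.3. Without this library 15 of the 59 genes were higher (25.4%, background 11.4%) and 3 lower (5.08%, background 10.5%), and the median log2 fold change was 0.09. All 11 calls were kept. The 7 genes added were CCNA2 (log2 fold change 0.36, adjusted p = 0.0036), PLK1 (0.29, 0.0131), SGO2 (0.3, 0.0198), TPX2 (0.2, 0.0365), HMMR (0.32, 0.0189), UBE2C (0.29, 0.0337) and FOXM1 (0.25, 0.0116), all higher in shEHD1+Dox. The log2 fold change of CDK1 went from -0.11 to 0.05.

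**Figure D3:**
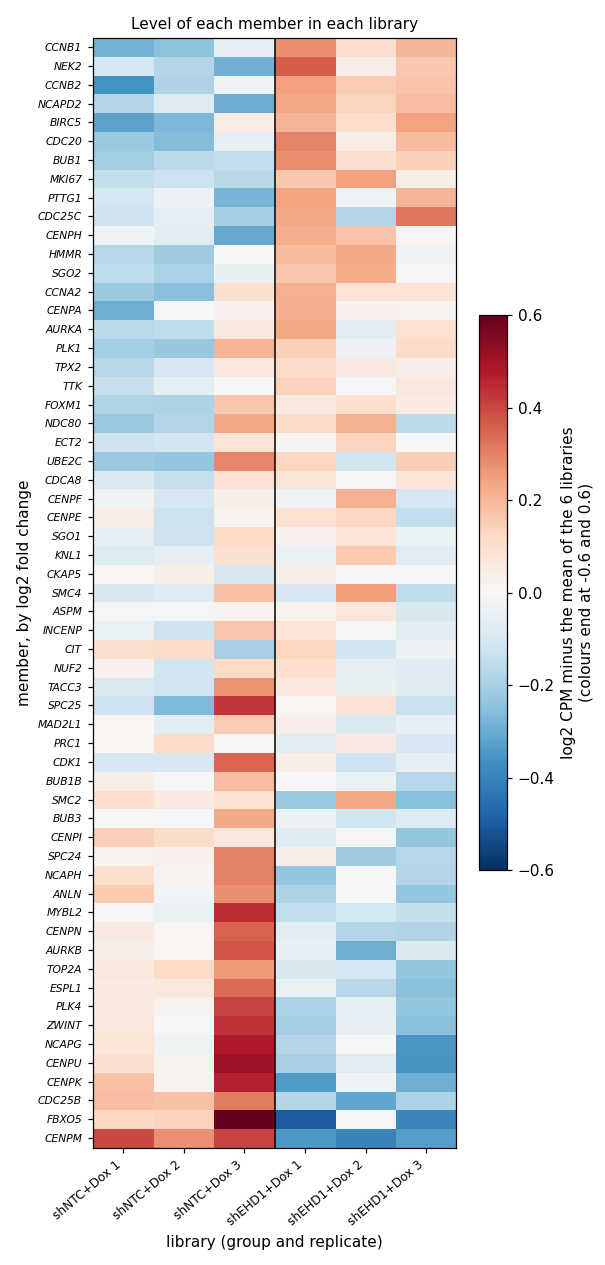
Log2 CPM of each of the 59 genes (rows, by log2 fold change) in each library (columns), minus the mean of the 6 libraries, with colours ending at -0.6 and 0.6. The column of shNTC+Dox replicate 3 is the reddest of the 3 controls in 47 of 59 rows.

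**Figure D4:**
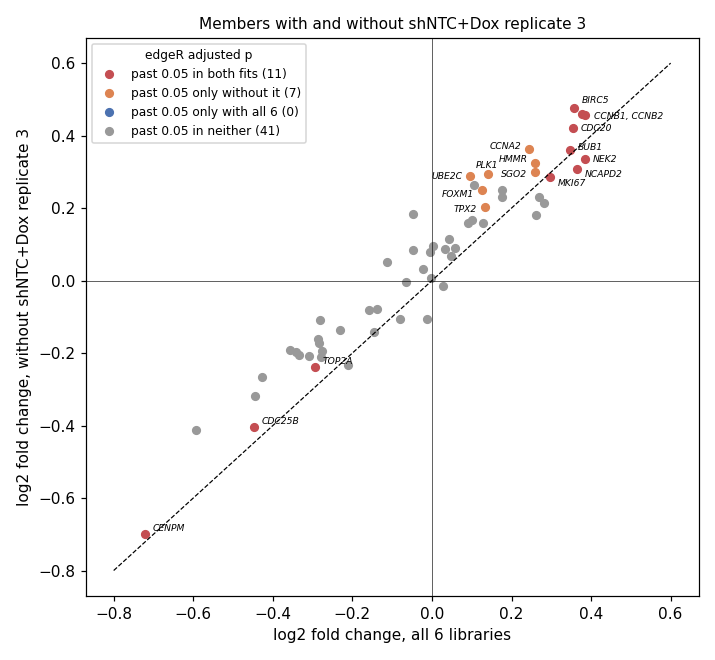
Log2 fold change of each of the 59 genes with all 6 libraries (x axis) and without shNTC+Dox replicate 3 (y axis), with the line of equal values dashed. The 11 genes past the test in each fit are red, the 7 past it only without that library are orange, and all 7 orange points lie above the line.

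Other genes of the cell cycle were taken as lists for context. Of 27 further kinetochore genes, 7 fell and none rose (25.9% lower, background 8.75%; median -0.18; 9 lower and 0 higher at an unadjusted p under 0.05, and 7 and 0 by DESeq2). They were CENPL, CENPO (31.6% of exon bases shared), CENPX, MIS12, NSL1, KNTC1 and SKA2. SKA2, a subunit of the SKA complex that holds on to shortening microtubules, fell by 0.62 (SE 0.08, adjusted p = 0.00147) and the histone-fold protein CENPX by 0.57 (SE 0.1, adjusted p = 0.0071). Without shNTC+Dox replicate 3, 7 of the 27 passed as lower (25.9%, background 10.5%) and 0 as higher, and the median was -0.1. Of 14 further genes of entry and cytokinesis, 1 fell (7.14%, background 8.75%) and 2 rose (14.3%, background 8.59%), with a median of -0.05. At an unadjusted p under 0.05, 4 were lower and 3 higher, and DESeq2 called the same numbers (backgrounds 11.1% and 10.5%). Without shNTC+Dox replicate 3, 4 passed as lower (background 10.5%) and 3 as higher (background 11.4%), and the median was 0.05. CDC25A, the phosphatase that also serves S phase entry, fell by 0.93 (SE 0.17, adjusted p = 0.0107), while the midbody gene CEP55 rose by 0.36 (SE 0.08, adjusted p = 0.019), a call kept in 2 of 6 fits with a library left out. Of 34 S phase genes, 16 fell and none rose (47.1% lower, background 8.75%; median -0.43; 25 lower and 0 higher at an unadjusted p under 0.05, and 23 and 0 by DESeq2). PCNA, the sliding clamp of DNA polymerases, had 209, 206 and 287 CPM in shNTC+Dox and 98.0, 132 and 109 CPM in shEHD1+Dox (log2 fold change -1.05, SE 0.16, adjusted p = 0.00444), and MCM3, a subunit of the replicative helicase, had -0.79 (SE 0.14, adjusted p = 0.0068). Without shNTC+Dox replicate 3 the median of the S phase genes was -0.3. The number of fallen S phase genes was 12 without shNTC+Dox replicate 3 (background 10.5%) and 10 without shNTC+Dox replicate 1 (background 5.37%). It was 4 and 3 when replicates 1 and 3 of shEHD1+Dox were left out in turn (backgrounds 4.39% and 4.15%). The 59 mitotic genes, with a median of 0.0034, were not tested as a set against the S phase genes.

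**Figure D5:**
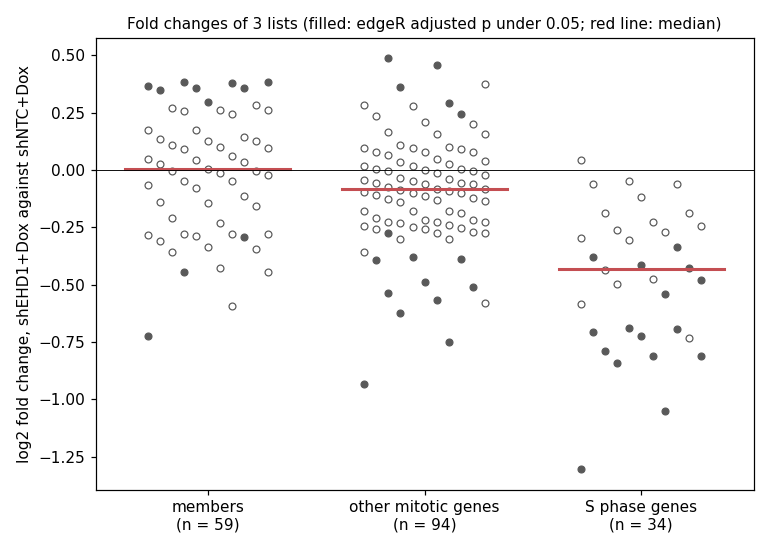
Log2 fold change in shEHD1+Dox against shNTC+Dox (y axis) of the 59 genes, 94 other mitotic genes and 34 S phase genes, 1 point a gene, filled where the edgeR adjusted p was under 0.05, with the median as a red line. The medians were 0.0034, -0.08 and -0.43, and all but 1 of the S phase genes lie below 0. Without shNTC+Dox replicate 3, a fit not drawn here, the medians were 0.09, -0.02 and -0.3.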

How the data were processed

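RNA-seq libraries of TC71 cells, 3 shNTC+Dox and 3 shEHD1+Dox, were grouped by the sample labels. The authors deposited whole-number counts per gene on hg38, without normalization. The study's methods name hisat2, Ensembl annotations and Stringtie, the submitters' processing notes name STAR 2.7.3a, and how the counts were derived is not given in the sources used here. Nothing in the labels says that replicates were separate cultures, so p-values measure the spread between these samples, which may be technical.

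Counts were scaled by TMM and tested with edgeR 4.0.16 in R 4.3.3 (glmQLFit with robust estimation, glmQLFTest, group only) over the 16785 genes that reached 10 counts in 3 or more libraries, and p-values were adjusted by Benjamini-Hochberg over all of them. Genes passed at an adjusted p under 0.05, and the fold threshold was 2. CPM values are TMM-normalised and log2 CPM used a prior count of 2. Alternatives were DESeq2 1.42.0, its size factors, other filters, the replicate number as a block and each library left out. No replicate pair agreed within sampling noise (chi-square per degree of freedom over all genes tested at least 5.56). This value was 5.56 between shNTC+Dox replicates 1 and 2, and 25.6 and 27.1 between these and replicate 3. Among the shEHD1+Dox libraries it was 7.59 between replicates 1 and 3, 18 between 1 and 2, and 16.8 between 2 and 3. The test was tested on simulated data.

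Gene coordinates and exons came from GENCODE on GRCh38, in which 60357 of the 60676 identifiers were found. The kit (TruSeq) does not keep strand, and 21 of the 59 genes share exon bases with another gene, 4 of them over 20%. Promoters came from RefSeq GRCh38.p14. The 59 genes and the lists were chosen with earlier results of these data known. Named genes were EHD1, all members past the test, the most abundant per length in each role, the 3 largest changes not past it, and the 2 smallest p past it of each other list. Other members were named for their role and values. Promoters were printed for genes past the test with a CHR or E2F word. One marker gene of the leukocyte list is not reported here.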

Additional observations from a re-analysis of the deposited data

How the results depend on the processing

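Of the 59 genes, CENPM and CDC25B passed under all 11 alternatives, BUB1 under 10, NCAPD2 under 9, NEK2 under 8, CCNB1, CDC20, MKI67 and TOP2A under 7, and CCNB2 and BIRC5 under 6. DESeq2's size factors in edgeR changed no call, and no gene passed the 2-fold threshold under any alternative. The number of fallen genes, 3, became 7 with at least 10 counts in every library and 11 by DESeq2, and ran from 2 to 6 with a library left out. The number of risen genes, 8, ran from 0 to 15 with a library left out. For the other mitotic genes, the 11 fallen became 17 by DESeq2 and ran from 6 to 15 with a library left out, and the 5 risen became 8 by DESeq2, 8 with at least 10 counts in every library and 2 with the replicate block, and ran from 0 to 9 with a library left out. The 16 fallen S phase genes became 9 with the replicate block and ran from 3 to 18 with a library left out. Over all genes tested the share called also moved. The share lower was 8.75% in the main fit, 10.7% with at least 10 counts in every library, 11.1% by DESeq2 and 5.31% with the block. The share higher was 8.59%, 10.4%, 10.5% and 5.21% in these fits. With a library left out, the share lower ran from 4.15% to 10.5% and the share higher from 3.76% to 11.4%. The causes of these shifts were not tested, except that fewer libraries were used where one was left out. The labels do not say whether the replicate numbers pair the libraries. Same-numbered deviations correlated at 0.072, -0.0593 and -0.0448, the other pairs at -0.0817 to 0.11, and not every library was closest to its own number. With 3 libraries a group these values do not settle whether the numbers pair them. With the number as a block, 6 genes rose (background 5.21%) and 2 fell (background 5.31%). Of the 11 calls 8 remained, without CCNB2 (adjusted p = 0.0511), MKI67 (0.0665) and TOP2A (0.0926). Without a filter INCENP, ASPM and CIT were at 0.01, and SMC4 was at -0.0024 with the replicate block. With a library left out, the log2 fold change changed sign for CDK1 (range -0.19 to 0.05), NUF2 (range -0.09 to 0.03), SPC25 (range -0.18 to 0.18), KNL1 (range -0.04 to 0.09), CENPE (range -0.01 to 0.13), CENPF (range -0.04 to 0.12), INCENP (range -0.07 to 0.08), SGO1 (range -0.01 to 0.11), CKAP5 (range -0.01 to 0.05), TACC3 (range -0.12 to 0.09), ASPM (range -0.04 to 0.04), CIT (range -0.1 to 0.04) and SMC4 (range -0.13 to 0.09).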

Other observations

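Of 16 subunits and partners of the anaphase-promoting complex outside the 59 genes, only ANAPC15 passed the edgeR test, rising by 0.46 on the log2 scale (SE 0.12, adjusted p = 0.0313), from 12.2 ± 1.27 CPM in the controls to 16.8 ± 1.26 CPM with the EHD1 hairpin (SD, n = 3 each). This is 6.25% of the list, against 8.59% higher among all genes tested. The call was kept in 1 of 6 fits with a library left out and 5 of 11 alternatives in all (adjusted p from 0.007 to 0.119), and 27.1% of the exon bases of ANAPC15 are shared with genes on the other strand. The ANAPC15 protein promotes the turnover of the checkpoint complex on the anaphase-promoting complex. The median of the 16 was 0.01, and DESeq2 called 1 higher and 1 lower. The 3 subunits particular to condensin II were at -0.19 (NCAPD3, SE 0.09), -0.09 (NCAPG2, SE 0.07) and -0.18 (NCAPH2, SE 0.09), with no call by edgeR or DESeq2 and 0 at an unadjusted p under 0.05.

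Of 29 further spindle and centriole genes, 3 fell (10.3%, background 8.75%) and 2 rose (6.9%, background 8.59%), with a median of -0.09. DESeq2 called 5 lower (background 11.1%) and 4 higher (background 10.5%). Without shNTC+Dox replicate 3 edgeR called 4 lower (background 10.5%) and 5 higher (background 11.4%), with a median of -0.03. Gamma-tubulin TUBG1, which nucleates microtubules, fell by 0.49 (SE 0.09, adjusted p = 0.00672), from 61.3, 64.0 and 73.5 CPM to 45.2, 49.7 and 46.7 CPM. NUSAP1, a microtubule binder of the central spindle, fell by 0.39 (SE 0.08, adjusted p = 0.013), but 86.8% of its exon bases are shared with OIP5, OIP5-AS1 and another gene, so its counts are uncertain. HAUS6, of the augmin complex, fell by 0.38 (SE 0.09, adjusted p = 0.0198). TUBGCP2, which sits with TUBG1 in the gamma-tubulin ring, rose by 0.29 (SE 0.06, adjusted p = 0.0135), and CLASP2, which stabilises microtubule ends, rose by 0.24 (SE 0.06, adjusted p = 0.0261). HAUS6, TUBGCP2 and CLASP2 were named after their values were seen. The 5 genes of the MuvB core were between -0.24 and -0.01 (median -0.1), with no call by edgeR or DESeq2 and 0 at an unadjusted p under 0.05.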
